A study of Mus musculus with 4 samples.

Results

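A group of 8 genes that regulate ubiquitin chains in NF-kB signalling were followed in mouse mucosal mast cells: Tnfaip3 (A20), Tnip1, Cyld, Traf1, Traf2, Traf3, Birc2 and Birc3. Members were all gene spots of the array design that carry 1 of these 8 names. This gave 11 probes of the 41174 gene probes, of which 24101 were bright enough to be tested, and all 11 member probes were among them. Cyld had 3 probes, Birc3 had 2 and each other gene had 1. Each of 4 biological replicates was 1 array. On it, cells differentiated in vitro and stimulated with interleukin 18 (IL-18), labelled with Cy5, were compared with their own unstimulated cells, labelled with Cy3. Strain, IL-18 dose and length of stimulation are not stated in the labels. Stimulated RNA always carried Cy5, and a bias of 1 dye therefore cannot be told apart from the response to IL-18.

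IL-18 belongs to the interleukin 1 family, and its receptor signals through MyD88, IRAK kinases and TRAF6 to the kinases that release NF-kB. Along this route and the parallel routes from TNF receptors, ubiquitin chains act as scaffolds that hold the kinases together. A20 and CYLD take such chains apart and ABIN-1, the product of Tnip1, binds them, so all of them restrain the pathway. TRAF2, TRAF3 and the ubiquitin ligases cIAP1 and cIAP2 (Birc2 and Birc3) build chains or hold the ligases. TRAF2, TRAF3 and the cIAPs together mark the kinase NIK for degradation, which keeps the noncanonical NF-kB route off. TRAF1 differs from the other TRAF proteins in lacking the RING domain of ubiquitin ligases. Several of these genes, A20 and Birc3 among them, are known as NF-kB targets in other cells.

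Of the gene spots, 57.9% to 62.7% were well above background in the stimulated channel and 49.9% to 54.0% in the unstimulated channel. None (0) was saturated, and no member spot (0) was marked as an outlier. All 8 mast cell markers examined, among them Kit, Fcer1a and Mcpt1, were well above background on every array in both channels. The same held for all 5 macrophage markers and for the 1 basophil marker, so detection alone does not set mast cells apart. In each other list, 1 marker was well above background on every array in the unstimulated channel. Fcer1a (0.81 on the log2 scale), Mcpt1 (0.69) and Cpa3 (0.47) were higher with IL-18 and Tpsb2 (-0.74) was lower, and 4 markers did not pass. Of 25 markers of other cell types, 18 could be tested. Adgre1, a macrophage gene, and Mcpt8, a basophil gene, passed the threshold as higher, and Itgax, a dendritic cell gene, as lower. The summed normalised intensity of the 5 macrophage markers was 76130 to 87100 in stimulated cells and 73570 to 82100 in unstimulated cells. That of Mcpt8 was 960.7 to 1923 in stimulated cells and 670.6 to 1463 in unstimulated cells. Elane, Cd8a and Cd209a were not well above background on any array. The part of other cells in the results was not tested, and in bulk RNA fewer cells of a type and less RNA per cell cannot be told apart.

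Replicate 1 stood apart in its ratios. Over all spots the median absolute log2 ratio was 0.0159 on this array and 0.0944 to 0.117 on the others. The background step fits 1 curve per array and channel, and on replicate 1 it was set by 7 spots with raised local background, up to 32441.5 against a median of 28.5 in the unstimulated channel. The fitted background mean was -380.8 with these spots and 29.4 without them, while replicates 2 to 4 had 26.3 to 32.0. Without such spots the median absolute log2 ratio of replicate 1 was 0.106. This alternative was added after the data were seen, and values under it are given as those without spots of raised background.

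Most of the 8 regulators were higher with IL-18. At the brightest probe of each gene, 6 of 8 passed the threshold as higher, and none (0) as lower by limma, also at an unadjusted p under 0.05. Over all 16969 tested genes, 19.7% passed as higher and 13.7% as lower. The median log2 ratio of the 8 genes was 0.32, and that of all tested genes was 0.04. The test was limma's moderated test of the log2 ratio against 0, with p-values adjusted by Benjamini and Hochberg's method across the 24101 tested probes and called at 0.05. Because the 8 genes were chosen with results of these data known, their count is a description. Ratios are relative to a loess trend with brightness, which median centring leaves in place. With median centring the median of all tested genes was 0.53 and that of the members 1.20. All 8 members then passed as higher, as did 10702 of all 16969 tested genes, with 77 lower. Scaling the arrays to equal spread left 0 members and 0 of all tested genes past the threshold in limma. When spots of raised background were also left out, 7 members passed as higher, beside 4747 of all tested genes, with 3710 lower. Without replicate 2, or without replicate 3, 4 of the 8 members passed. Of all tested genes, 1039 were then higher and 569 lower without replicate 2, and 1278 and 809 without replicate 3.

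**Figure D1:**
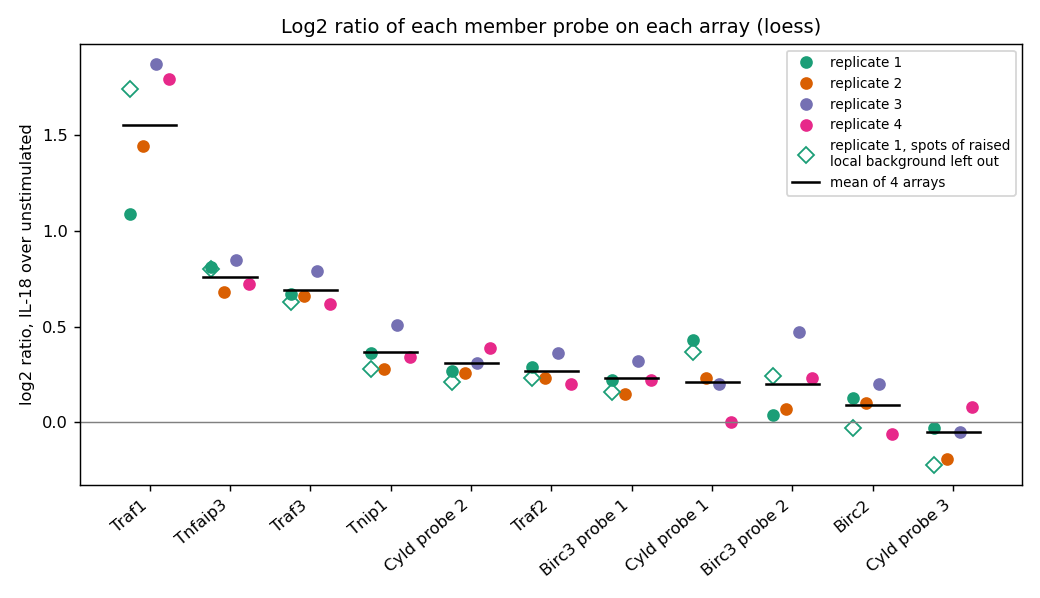
Log2 ratio of IL-18 stimulated over unstimulated cells (y axis) for each of the 11 member probes (x axis, ordered by mean), with 1 filled point per array and a line at the mean of 4 arrays. Open diamonds are replicate 1 without spots of raised background. Traf1 spans 1.09 to 1.87, with replicate 1 at 1.74 as a diamond, while Cyld probe 3 lies on both sides of 0.

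Tnfaip3 encodes A20, a ubiquitin-editing enzyme that ends NF-kB signalling. Its probe (A_52_P412417) had normalised intensities of 4887, 5170, 4744 and 4830 in stimulated cells of replicates 1 to 4, against 2789, 3219, 2635 and 2936 in unstimulated cells. All stimulated values lay above all unstimulated ones. The log2 ratios were 0.81, 0.68, 0.85 and 0.72, with a mean of 0.76 ± 0.08 (SD, n = 4), or 1.70-fold, and a 95% interval of 0.65 to 0.88 (limma, adjusted p = 6.61e-04). Without spots of raised background the mean was also 0.76, and 4 of 4 arrays were higher. Of the 2 start sites that RefSeq (GRCm38.p6) lists for Tnfaip3, the upstream one is shown because its window held 2 matches to the degenerate kappa B consensus, the sequence that NF-kB dimers bind. Capitals mark such matches in all windows printed here, which run from 250 bases before to 50 bases after a start.
Tnfaip3 promoter, chr10:19015361-19015660, minus strand: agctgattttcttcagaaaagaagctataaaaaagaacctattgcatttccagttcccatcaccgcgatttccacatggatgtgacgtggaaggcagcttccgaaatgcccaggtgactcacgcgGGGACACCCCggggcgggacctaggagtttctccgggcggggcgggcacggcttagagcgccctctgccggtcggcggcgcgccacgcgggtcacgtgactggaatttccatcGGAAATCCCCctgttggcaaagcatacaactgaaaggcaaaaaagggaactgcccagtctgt
The match nearest to the start, GGAAATCCCC, begins 12 bases before it on the opposite strand.

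Tnip1 encodes ABIN-1, an adaptor that binds both ubiquitin chains and A20. Its probe (A_51_P327261) read 2993, 2859, 3043 and 3005 in stimulated cells, against 2335, 2350, 2132 and 2369 in unstimulated cells. The groups did not overlap, although the step was smaller than that of Tnfaip3. The log2 ratio was 0.37 ± 0.10 (SD, n = 4), or 1.30-fold, with an interval of 0.25 to 0.50 (limma, adjusted p = 0.00412), and 4 of 4 arrays were higher. The Tnip1 window is shown for 3 overlapping matches to the same consensus in 1 palindromic stretch.
Tnip1 promoter, chr11:54962891-54963190, minus strand: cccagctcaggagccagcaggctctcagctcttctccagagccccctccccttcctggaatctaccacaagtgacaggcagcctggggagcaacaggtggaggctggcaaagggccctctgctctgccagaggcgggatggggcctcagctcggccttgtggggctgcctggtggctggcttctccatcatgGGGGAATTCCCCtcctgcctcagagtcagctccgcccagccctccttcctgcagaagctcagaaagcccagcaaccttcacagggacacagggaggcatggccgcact

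Cyld encodes a deubiquitinase that removes scaffolding chains, and its 3 probes did not give 1 answer. The brightest (A_51_P300001) read 1112, 917.4, 846.7 and 851.1 in stimulated cells, against 823.7, 784.1, 737.2 and 851.8 in unstimulated cells, so the groups overlapped. Its log2 ratio was 0.21 ± 0.18 (SD, n = 4), with 3 of 4 arrays higher, and did not pass (interval 0.04 to 0.39, limma, adjusted p = 0.0575). Without spots of raised background it passed at 0.20 (adjusted p = 0.0326), and without replicate 4 at 0.29 (adjusted p = 0.0168).

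The second Cyld probe (A_51_P516097) read 745.7, 715.9, 718.3 and 700.3 in stimulated cells, against 617.1, 599.0, 580.7 and 532.6 in unstimulated cells. These groups did not overlap, and the probe passed at 0.31 ± 0.06 (SD, n = 4; 4 of 4 arrays, limma, adjusted p = 0.00485). For this probe the name Cyld is the array's alone, while RefSeq gave it for the other Cyld probes. The third (A_52_P218976) was dim, well above background on 3 of 4 arrays in the unstimulated channel, and read 157.0, 145.4, 158.5 and 149.1 in stimulated cells, against 160.7, 165.4, 163.7 and 141.1 in unstimulated cells. Its log2 ratio of -0.05 ± 0.11 (SD, n = 4) did not pass (interval -0.17 to 0.08). The Cyld window is shown because it alone among the members held the strict kappa B sequence, which is GGGA, then any base, then TTTCC.
Cyld promoter, chr8:88696778-88697077, plus strand: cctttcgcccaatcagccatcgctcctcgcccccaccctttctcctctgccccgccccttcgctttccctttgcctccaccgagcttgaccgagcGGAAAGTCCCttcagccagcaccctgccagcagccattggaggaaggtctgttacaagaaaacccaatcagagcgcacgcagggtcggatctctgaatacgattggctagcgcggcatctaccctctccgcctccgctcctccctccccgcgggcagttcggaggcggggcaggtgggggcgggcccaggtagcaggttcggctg
The match lies on the opposite strand, and its first base is 155 bases before the start.

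Among the TRAF genes, Traf1 had the largest ratio of the 8 members and ranked 7 of 16969 tested genes. It encodes the adaptor that joins TRAF2 in complexes with cIAPs at TNF receptors. Its probe (A_51_P343833) read 1125, 884.0, 1239 and 1156 in stimulated cells, against 526.7, 325.0, 339.4 and 335.0 in unstimulated cells. Every stimulated value was above every unstimulated one, and the unstimulated value of replicate 1 stood far above the others. The log2 ratios were 1.09, 1.44, 1.87 and 1.79, with a mean of 1.55 ± 0.35 (SD, n = 4), or 2.92-fold, and an interval of 1.25 to 1.85 (limma, adjusted p = 0.00107).

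Replicate 1 carried much of the spread of Traf1. Without spots of raised background, the normalised intensities of replicate 1 were 1054 in stimulated cells and 315.8 in unstimulated cells, beside 286.7, 303.9 and 300.5 in unstimulated cells of replicates 2, 3 and 4. The log2 ratio of replicate 1 was then 1.74 and the mean 1.72 ± 0.19 (SD, n = 4), or 3.28-fold (limma, adjusted p = 5.34e-05). The scanner software's own ratio, which does not use this background step, gave 2.01, 1.69, 2.27 and 2.23, with a mean of 2.05 ± 0.26 (SD, n = 4). Traf1 rose on 4 of 4 arrays in each of these versions, and its size was the member value that moved most with the background step. The Traf1 window is shown as that of the member with the largest ratio, and it held no match to the consensus.
Traf1 promoter, chr2:34961723-34962022, minus strand: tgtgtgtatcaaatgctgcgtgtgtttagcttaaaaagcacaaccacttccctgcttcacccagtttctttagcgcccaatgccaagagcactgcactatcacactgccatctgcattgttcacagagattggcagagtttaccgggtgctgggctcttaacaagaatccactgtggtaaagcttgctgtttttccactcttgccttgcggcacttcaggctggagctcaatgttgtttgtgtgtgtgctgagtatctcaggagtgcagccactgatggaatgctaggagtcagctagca

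Traf3 encodes the TRAF protein that holds NIK for degradation. Its probe (A_51_P469411) read 2427, 2493, 2906 and 2710 in stimulated cells, against 1525, 1583, 1675 and 1759 in unstimulated cells. The groups lay well apart. The log2 ratio was 0.69 ± 0.08 (SD, n = 4), or 1.61-fold, with an interval of 0.57 to 0.80 (limma, adjusted p = 7.50e-04) and 4 of 4 arrays higher. Its window is shown for a match close to the start, GGGGATTTCC, which begins 10 bases before it.
Traf3 promoter, chr12:111166120-111166419, plus strand: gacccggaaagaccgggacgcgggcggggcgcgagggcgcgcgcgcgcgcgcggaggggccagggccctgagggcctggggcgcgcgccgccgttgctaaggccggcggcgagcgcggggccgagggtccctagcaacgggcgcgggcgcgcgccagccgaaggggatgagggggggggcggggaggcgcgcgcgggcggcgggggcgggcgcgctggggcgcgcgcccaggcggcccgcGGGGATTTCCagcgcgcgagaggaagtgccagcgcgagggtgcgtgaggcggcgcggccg

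Traf2 encodes the TRAF protein that recruits cIAPs, and its ratio was below those of Traf1 and Traf3 on 4 of 4 arrays. Its probe (A_51_P270819) read 4225, 4198, 4727 and 4670 in stimulated cells, against 3464, 3587, 3682 and 4057 in unstimulated cells. The lowest stimulated value, in replicate 2, was just above the highest unstimulated value, in replicate 4. The log2 ratio was 0.27 ± 0.07 (SD, n = 4), or 1.21-fold, with an interval of 0.16 to 0.38 (limma, adjusted p = 0.00791) and 4 of 4 arrays higher. It did not pass without replicate 2 (0.28, adjusted p = 0.0503) or replicate 3 (0.24, adjusted p = 0.0528), at nearly the same size.

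Birc2 and Birc3 encode cIAP1 and cIAP2, ubiquitin ligases that modify RIPK1 and NIK, and lie next to each other on chromosome 9 in RefSeq (GRCm38.p6). The bright Birc3 probe (A_51_P449171) read 4282, 4061, 4788 and 4570 in stimulated cells, against 3682, 3663, 3841 and 3917 in unstimulated cells. The groups did not overlap, but the step was small: 0.23 ± 0.07 on the log2 scale (SD, n = 4), or 1.17-fold, with 4 of 4 arrays higher (interval 0.12 to 0.34, limma, adjusted p = 0.0130). It did not pass without replicate 2 (0.25, adjusted p = 0.0563) or replicate 3 (0.20, adjusted p = 0.0779).

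The dim Birc3 probe (A_52_P434055) read 197.8, 196.1, 228.7 and 207.6 in stimulated cells, against 192.3, 187.1, 165.1 and 176.8 in unstimulated cells. These groups did not overlap either, and the log2 ratio of 0.20 ± 0.20 (SD, n = 4) did not pass (limma, adjusted p = 0.0826). It passed without spots of raised background, at 0.26 (adjusted p = 0.0174), and with the scanner software's ratio, at 0.53 (adjusted p = 0.0213). For this probe the name Birc3 is the array's alone, while RefSeq gave it for the bright probe.

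The Birc2 probe (A_51_P254471) read 1532, 1393, 1545 and 1396 in stimulated cells, against 1404, 1297, 1343 and 1459 in unstimulated cells. The groups overlapped, with replicate 4 lower in stimulated cells. The log2 ratio of 0.09 ± 0.11 (SD, n = 4) did not pass (interval -0.04 to 0.22, limma, adjusted p = 0.225). Probe sequences were not used here, and how far a probe of 1 cIAP gene also binds the transcript of the other was not tested.

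**Figure D2:**
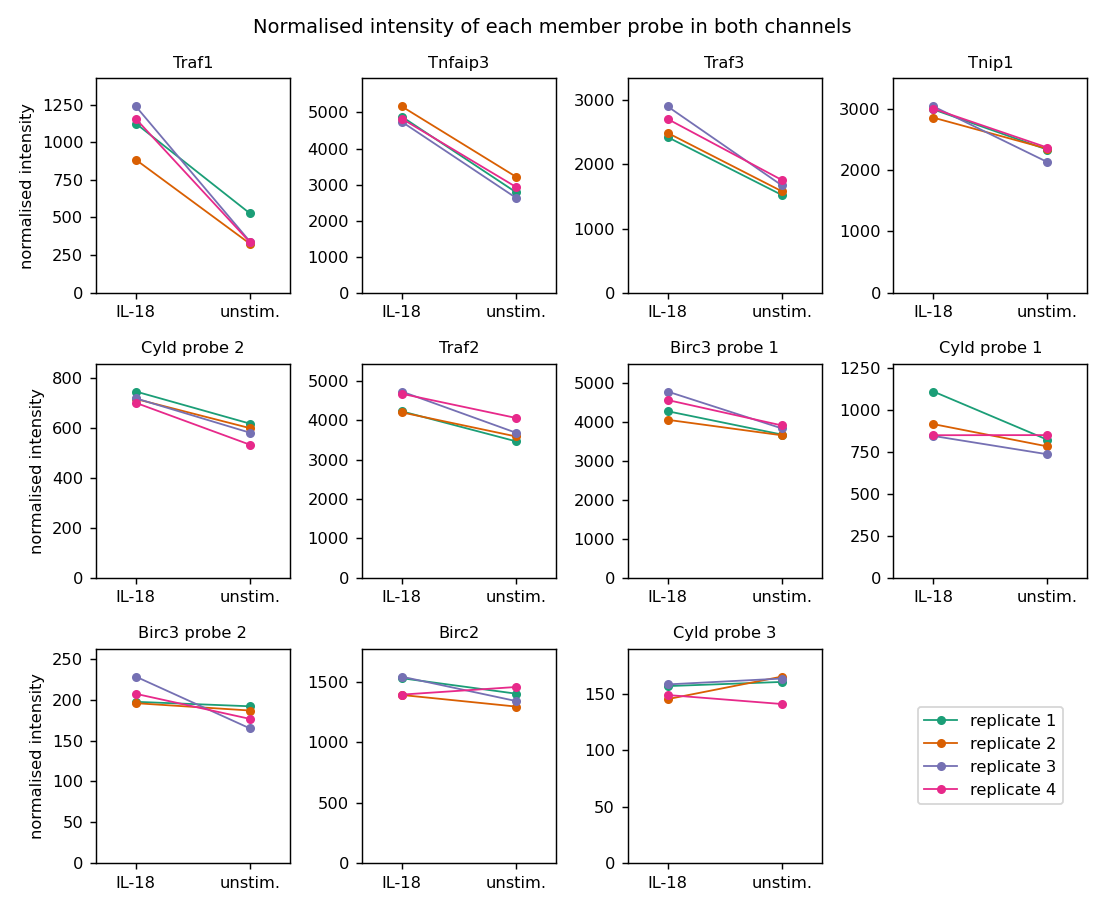
Normalised intensity (y axis, linear from 0) of each member probe in stimulated cells (left) and unstimulated cells (right), with 1 line per array. In 8 of 11 panels all stimulated points are above all unstimulated points, and the unstimulated point of replicate 1 for Traf1, at 526.7, lies above the 325.0 to 339.4 of the others.

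In 8 of the 11 member probes the 4 stimulated intensities all lay above the 4 unstimulated ones, and in none (0) did they all lie below. Over all tested probes with complete values, 16.0% had the first pattern and 15.3% the second. By the test, 7 of the 11 member probes passed as higher, against 18.1% of all tested probes, and none (0) as lower, against 16.1%.

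Ordered by ratio, the 8 genes ran Traf1, Tnfaip3, Traf3, Tnip1, Traf2, Birc3, Cyld and Birc2. On each array the loess ratio of Traf1 was above that of Tnfaip3, by 0.78 ± 0.36 on the log2 scale (SD, n = 4 arrays). Tnfaip3 was above Traf3 by only 0.08 ± 0.05, and Traf3 above Tnip1 by 0.31 ± 0.04, each on 4 of 4 arrays. Traf2, Birc3 and Cyld did not separate beyond their spread, since Traf2 lay above Birc3 by 0.04 ± 0.04 (3 of 4 arrays) and Birc3 above Cyld by 0.01 ± 0.20 (2 of 4 arrays). Cyld lay above Birc2 by 0.12 ± 0.13 (3 of 4 arrays). These differences between members are given as a description, with no test.

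The 4 log2 ratios of 16929 genes were compared by root mean square difference. Members were passed over, as were genes without a plain symbol (clone, locus or transcript codes, or names with a hyphen). The remaining genes most like Traf1 were Zc3h12a (difference 0.217, mean log2 ratio 1.49), Rpl41 (0.232, mean 1.45) and Irg1 (0.251, mean 1.60). Those most like Tnfaip3 were Gas5 (0.072, mean 0.71), Bcl2l11 (0.084, mean 0.68) and Rpl29 (0.092, mean 0.77). Zc3h12a encodes a ribonuclease of inflammatory mRNAs, Irg1 the enzyme that makes itaconate, Bcl2l11 the death protein BIM, and Rpl41 and Rpl29 ribosomal proteins. Gas5 is a noncoding RNA.

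The promoter windows were compared as text only. Windows of the members were filtered by chromosome, while those of all genes were not. This left 10 RefSeq windows of 300 bases for the 8 genes. Those of 4 genes (Tnfaip3, Tnip1, Traf3 and Cyld) held a match to the degenerate kappa B consensus on either strand. Of all genes with a window, 5.14% did, and 0.466% held the strict sequence, every match of which is also a match to the consensus. The windows of Traf1, Traf2, Birc2 and Birc3 held none (0) of these letters. Genes with and without a match both stood among the higher ratios: Tnfaip3 (0.76) and Traf3 (0.69) had one, and Traf1 (1.55) had none. A match in a window is a description and not a binding site.

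Beyond the 8 members, 40 further genes of the same pathway were listed, of which 39 could be tested. The list holds other TRAF proteins, A20 partners, the linear ubiquitin ligase, ubiquitin-conjugating enzymes, TAK1 and its adaptors, and TNF-type receptors. In this list 11 genes passed as higher, 4 passed as lower and 24 did not pass, against 19.7% higher and 13.7% lower over all tested genes. With the mean of all tested probes of a gene, the counts were 9 higher and 6 lower. Of all 16969 tested genes, 3032 were then higher and 2578 lower. Of the 24 genes that did not pass, 10 had another tested probe, and in 5 of them another probe fell: Tax1bp1 (-0.73), Ripk1 (-0.55), Tab2 (-0.47), Trafd1 (-0.43) and Ube2v1 (-0.27). Over all tested probes, 16.1% passed as lower. That share is per probe, while Tax1bp1, Ripk1 and Ube2v1 had more than 1 further tested probe, so the count is a description. The median log2 ratio of the list was 0.01, near the 0.04 of all tested genes. Xiap, a relative of the cIAP genes, had 1 probe, which was too dim to be tested.

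The 5 largest rises were those of Tnip3, Ube2l3, Ube2v2, Tnfrsf1b and Ikbkg. Tnip3, which encodes the A20-binding protein ABIN-3, read 0.24, 0.96, 1.07 and 0.72 on the 4 arrays, with a mean of 0.75 ± 0.37 (SD, n = 4; limma, adjusted p = 0.00835). Its probe was dim, with a mean log2 intensity of 7.77, though well above background on 4 of 4 arrays in both channels. As with Traf1, replicate 1 was the lowest, and without spots of raised background the mean of Tnip3 was 1.01 (adjusted p = 2.43e-04). The scanner software's ratio gave 2.12, and without replicate 2 the call was lost at 0.68 (adjusted p = 0.0564). Tnfrsf1b, the gene of TNF receptor 2, rose by 0.46 ± 0.10 on the log2 scale (SD, n = 4) at its brighter probe, and its other probe read 0.08 ± 0.04 and did not pass (limma, adjusted p = 0.181). Tnfrsf1a, the gene of TNF receptor 1, read -0.01 ± 0.05 at its 1 probe and did not pass.

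Both ubiquitin-conjugating enzymes among them had probes that differed. Ube2l3, whose product serves the linear ubiquitin ligase, rose by 0.56 ± 0.06 (SD, n = 4) at its brighter probe and fell by 0.23 at the other. Ube2v2, a cofactor of UBC13 (Ube2n), rose by 0.49 ± 0.08, but its other probes read 0.02 and 0.04. Ikbkg, the gene of NEMO, rose by 0.38 ± 0.13 at 1 of 4 probes. Of 7 risen genes in the list with more than 1 tested probe, 1, Tank, rose at every probe, and 2, Ube2l3 and Otud7b, had another probe that fell. Tank encodes a TRAF-binding adaptor that inhibits signalling, and its brightest probe rose by 0.31 ± 0.02 (SD, n = 4). Otud7b encodes a deubiquitinase of the A20 family and was named, like Tank, after its values were seen.

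The 4 genes that fell had 1 probe each. Rbck1, which encodes HOIL-1 of the linear ubiquitin ligase, fell by 0.51 on the log2 scale (SD 0.27, n = 4; limma, adjusted p = 0.0117). Tab1, an adaptor of TAK1, fell by 0.24 (SD 0.10), Ltbr, the lymphotoxin beta receptor, by 0.22 (SD 0.10), and Traf5, a further TRAF adaptor, by 0.18 (SD 0.11). With median centring in place of loess, which put the median of all tested genes at 0.53, Rbck1 read 0.42, Traf5 0.54, Ltbr 0.68 and Tab1 0.73. All 4 were then above 0, as most genes were. Median centring leaves the trend with brightness in place, so the median of all genes is not a zero for bright probes. Whether these 4 genes fell relative to others of like brightness cannot be read from it. None (0) of the 4 passed without replicate 2, and the list then held 5 genes higher. Without replicate 3 it held 6 higher and 1 lower, Rbck1. Of genes named for their role after their values were seen, Traf6, the TRAF protein of the IL-18 receptor itself, read 0.04 ± 0.09 and Traf4 0.01 ± 0.03, and neither passed.

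**Figure D3:**
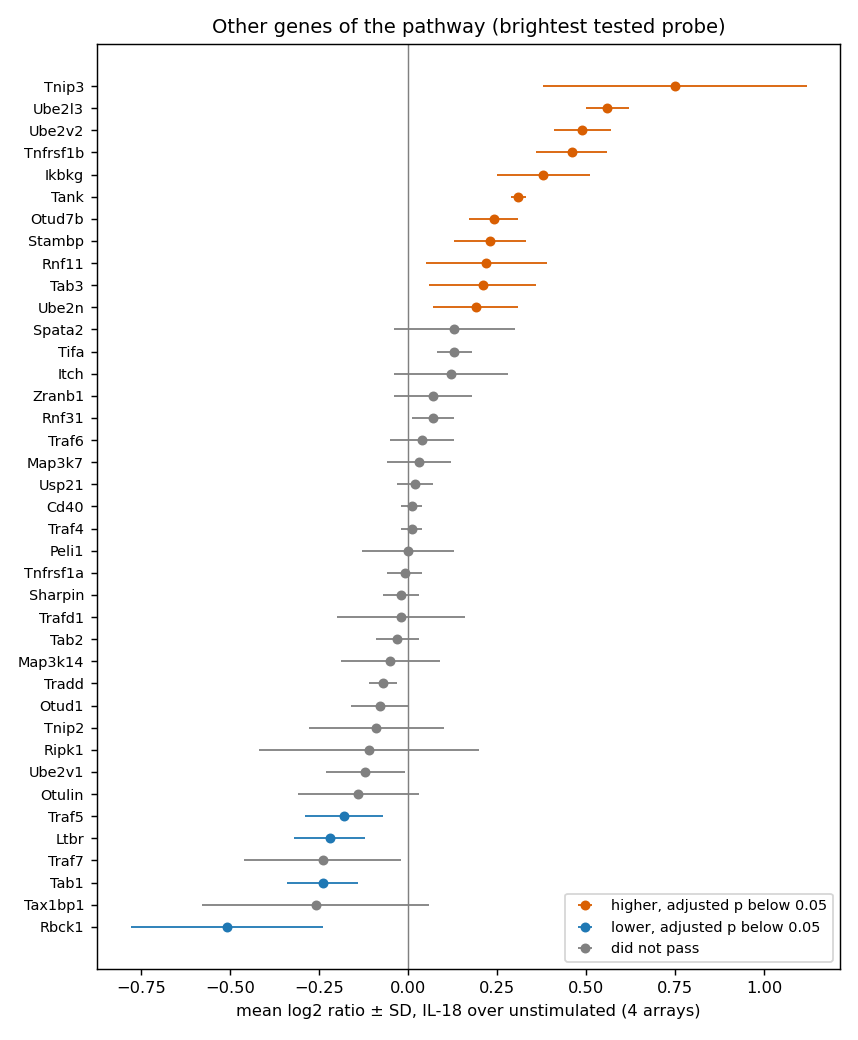
Mean log2 ratio ± SD of 4 arrays (x axis) for the 39 other genes of the pathway (y axis) at the brightest tested probe, coloured by call. The 11 genes called higher reach 0.75 (Tnip3), and the 4 called lower reach -0.51 (Rbck1). With median centring, which keeps the trend with brightness and lifts the median of all tested genes to 0.53, Rbck1 reads 0.42, Traf5 0.54, Ltbr 0.68 and Tab1 0.73.

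The order of the members' mean ratios held across ways of normalising more than their size did. By the mean with loess, with the scanner software's ratio and with median centring, Traf1 was the highest, followed by Tnfaip3, Traf3 and Tnip1, and Birc2 the lowest. The order did not hold on every array. On replicate 1 with median centring, Tnfaip3 (2.30) was above Traf1 (2.03), and Traf2 (1.78) was above Tnip1 (1.74). Median centring gave 2.13 for Traf1, 1.67 for Tnfaip3, 1.48 for Traf3, 1.21 for Tnip1, 1.18 for Traf2, 1.14 for Birc3, 0.86 for Cyld and 0.83 for Birc2. Each of the 8 read above the median of all tested genes under it, 0.53, but median centring leaves the trend with brightness in place. Birc2 read 0.09 with loess and did not pass. Whether a member rose relative to genes of like brightness cannot be read from that median. The arrays lay on 2 slides, replicates 1 and 2 on slide 1 and replicates 3 and 4 on slide 2. Within slide 1 and slide 2, Traf1 averaged 1.27 and 1.83, Tnfaip3 0.75 and 0.78, Traf3 0.66 and 0.71, Tnip1 0.32 and 0.43, and Traf2 0.26 and 0.28. For Birc3 the values were 0.18 and 0.27, for Cyld 0.33 and 0.10, and for Birc2 0.11 and 0.07. With slide as a block in the fit, the call of Cyld was gained (0.21, limma, adjusted p = 0.0300) and no member's call was lost.

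**Figure D4:**
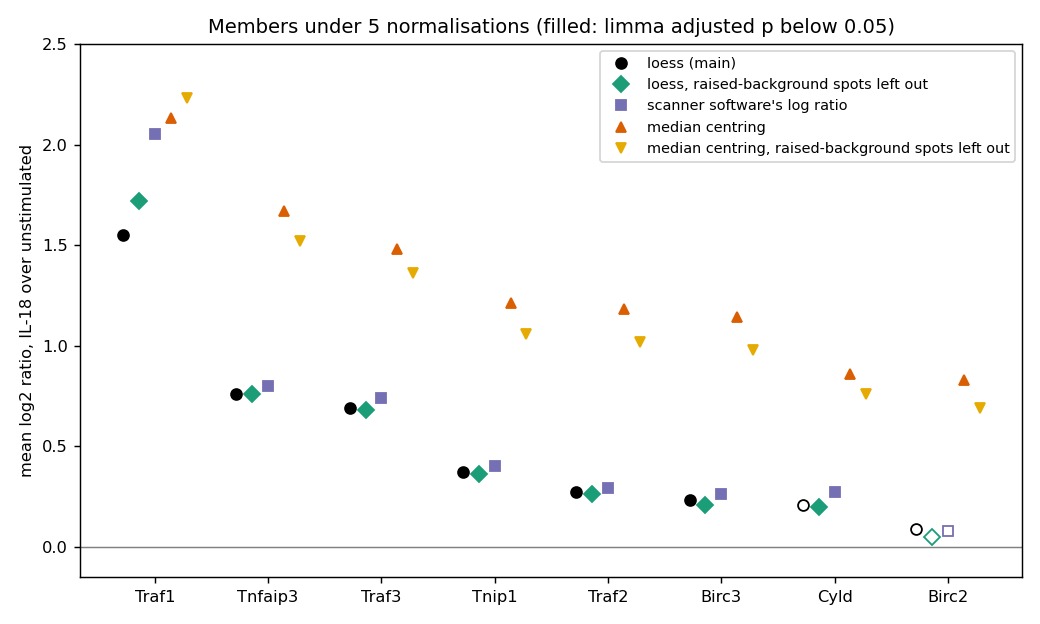
Mean log2 ratio of 4 arrays (y axis) for the brightest probe of the 8 members (x axis) under 5 normalisations. Filled points passed the threshold. Values for Tnfaip3 lie at 0.76 to 0.80 with loess and the scanner software's ratio, against 1.52 to 1.67 with median centring, and Birc2 passes only with median centring.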

How the data were processed

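Two-colour Agilent arrays of 4 replicates were read from the deposited scanner output. Per the labels' protocols and the submitters' processing notes, the authors scanned and normalised them with Agilent Feature Extraction 9.1 at default settings. The deposited intensity columns used here are mean signal and local background per channel. The authors' deposited log10 ratio (Cy5 over Cy3) was used as an alternative, as was the deposited value table, which differed from it by at most 0.00496. With limma 3.58.1 in R 4.3.3, background was corrected by normexp (offset 50) over all spots, and arrays were normalised by loess with control and outlier spots at weight 0. Spots of a probe were averaged, and log2 ratios were computed from these deposited intensities. A probe was tested (lmFit, eBayes) if 1 channel was well above background on 3 or more of the 4 arrays and 3 or more ratios were present. Benjamini-Hochberg adjusted p-values were called at 0.05. A gene was taken at its brightest tested probe. Symbols were updated by accession through RefSeq (GRCm38.p6), and the array's name was kept where none was found. The steps were tested on simulated data built without spots of raised background, so that test does not bear on the main fit of replicate 1. Normalised intensities of different probes are not comparable.

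The members, the gene lists and the rule for named genes were chosen with earlier results of these data known. Named genes are every member and the pathway genes past the threshold (at most the 5 largest in a direction with more than 5). Named too are the 3 other genes with a plain symbol nearest in pattern to Traf1 and Tnfaip3. Tank, Otud7b, Tnfrsf1a, Traf4, Traf6, Xiap and the 5 genes with a fallen further probe were named outside this rule, after their values were seen. Results were recomputed under 18 other settings and 3 chosen after seeing the data, the last all without spots whose local background was over 2 times the array median. Each array pairs stimulated and unstimulated cells of 1 replicate, as the labels state. The labels call the 4 samples biological replicates.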

Additional observations from a re-analysis of the deposited data

Results flagged for a closer look

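In 72 groups of 4 values, 1 value stood far from the other 3 in 6 groups, and chance flags about 1 in 20 groups. The unstimulated intensity of Traf1 was 526.7 in replicate 1, against 325.0 to 339.4 in the others, and 315.8 without spots of raised background. The unstimulated intensity of Tnip1 was 2132 in replicate 3, against 2335 to 2369 in the others. Map3k14, the gene of NIK, had a log2 ratio of 0.16 in replicate 1, against -0.15 to -0.10 in the others. In replicate 4, Tax1bp1, an A20 adaptor, read -0.74 against -0.15 to -0.07, Traf7 read -0.56 against -0.16 to -0.09, and Usp21 read -0.06 against 0.04 to 0.05.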

How the results depend on the processing

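Leaving out 1 replicate in turn, log2 ratios ranged from 0.74 to 0.79 for Tnfaip3, 0.33 to 0.40 for Tnip1, 0.14 to 0.29 for Cyld, 1.44 to 1.70 for Traf1, 0.24 to 0.29 for Traf2, 0.65 to 0.71 for Traf3, 0.06 to 0.14 for Birc2 and 0.20 to 0.25 for Birc3. The other probes ranged from 0.28 to 0.32 and -0.09 to 0 for Cyld probes 2 and 3, and 0.11 to 0.26 for Birc3 probe 2. Members higher numbered 4 to 7 and lower 0 to 0, pathway genes 5 to 10 higher and 0 to 5 lower, and all genes 1039 to 3524 higher and 569 to 2994 lower. Cyld probe 3 reached 0 without replicate 2 and with median centring. Cyld passed with the software's ratio and the value table (0.27 each), median centring (0.86), no background correction, robust eBayes with a trend or slide as a block (0.21 each), the mean of its probes (0.16), and without replicate 4 (0.29, limma, adjusted p = 0.0168). It also passed without spots of raised background (0.20), with median centring (0.76) or scaling (0.21) added. Birc2 passed at 0.83 with median centring and at 0.69 when such spots were also left out. Scale normalization between arrays gave 1.18 for Tnfaip3, 0.55 for Tnip1, 1.92 for Traf1, 0.42 for Traf2, 1.02 for Traf3 and 0.33 for Birc3, and limma called 0 members, 0 pathway genes and 0 genes at all. At an unadjusted p under 0.05 it then gave 0 members, 3 pathway genes higher and 5 lower, and 1826 genes higher and 1831 lower. Without spots of raised background, scaling called 7 members, 4747 genes higher and 3710 lower. Leaving those spots out alone called 4474 genes higher and 3502 lower. Median centring called 33 pathway genes higher and 0 lower, and 10702 and 77 of all genes, or 37 and 0, and 12573 and 644, when those spots were also left out. With no replicate block, treating the channels as unpaired, 6 members, 8 pathway genes and 2594 genes were higher, 4 pathway genes and 2060 genes lower, and no member's call changed at its brightest probe. Dim probes (Cyld probe 3, Birc3 probe 2 and the Tnip3 probe) and 4 arrays limit precision. The cause of other changes was not tested.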
